A study of Mus musculus with 4 samples.

Results

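Sharp borders between low and high enrichment of methylated DNA were located in the livers of mouse fetuses, and their profile was read in a control pool and in a pool from food restricted dams. A border was a run of 6 consecutive autosomal probes with neighbouring starts at most 500 bp apart. M is the log2 of the immunoprecipitated over the reference signal, centred on each array's median. It had to be below -1 at each of the 3 probes on the low side and above 1 at each of the 3 probes on the high side, in the mean of the control arrays. Of 226870 such runs of 6 probes on the 19 autosomes, 89 met the rule. The values of the control pool chose these borders, so they are given here as a description. The food restricted pool played no part in the choice.

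DNA methylation in mammals lies mainly on the cytosines of CG dinucleotides. CpG islands, short stretches rich in these dinucleotides that often surround the start of a gene, are commonly free of methylation, while the sequence around them is commonly methylated, so that the level can change over a short distance at the edge of an island. In methylated DNA immunoprecipitation, an antibody against methylated cytosine pulls down sheared DNA, and a probe becomes brighter with both the methylation and the number of CG dinucleotides of the fragments that cover it. A step in enrichment can therefore follow a step in methylation, in CG density, or in both. The deposited files name probes by position on the mouse build mm9 only, and a genome of that build was not used here, so no gene names and no sequences are given.

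The study asked which genes link maternal food restriction to the health of the offspring. Control fetuses were C57BL/6J fetuses of dams fed freely, and food restricted fetuses were C57BL/6J fetuses of dams given 50% of the control dams' chow from gestation day 10 to 17, and the livers of both were taken on gestation day 18. Each group was 1 pool of fetal liver DNA, described as N = 6 without saying whether fetuses or litters were counted, and liver at this age holds several cell types that a pool of whole tissue does not separate. Immunoprecipitated DNA of a pool was hybridised against total DNA of the same pool on 2 arrays with exchanged dyes. Each of the 2 slides carried 1 array of either pool, labelled the same way round. Both arrays of a pool repeat the same DNA, so no comparison between the pools has a replicate check and no p-value was computed. D is the food restricted minus the control value on the same slide. A shift seen on both slides was repeated in the hybridisation but not in the animals, the pooling or the precipitation. The control array took an identical position on each slide, so such a shift does not tell pool from position. The immunoprecipitated signal was well above background at 72.2% and 72.0% of probes on the control arrays and at 79.9% and 80.6% on the food restricted arrays, and the reference signal at 93.5% to 97.6%. Their number and their signal limit the precision of all values below.

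The borders were spread over all 19 autosomes, with 45 at which M went from low to high along the chromosome (rising) and 44 at which it went from high to low (falling). Chromosome 2 held 13 borders, or 14.6% of them against 9.36% of the windows, and chromosomes 15 and 17 held 1 each. Relative to the number of windows, chromosome 9 had the most, with 7.08 borders per 10000 windows, and chromosome 17 the fewest, with 0.893. These counts are small and were not tested. The rule was rarely met by a wide margin. Another 2779 windows had 5 of the 6 probes past the threshold. The border closest to failing, on chromosome 5 (chr5:33676570-33677669), had control steps of 3.44 and 3.39, and the window closest to passing, on chromosome 11 (chr11:66737780-66739226), had 3.07 and 3.11 and missed at 1 probe with a mean control M of 0.9996. The next windows outside lay on chromosomes 8 (chr8:73220729-73222135), 2 (chr2:157280281-157281516) and 15 (chr15:74565870-74566758), with control steps between 2.44 and 3.26. Of the other borders just inside, that on chromosome 7 (chr7:31514634-31515967) had control steps of 3.57 and 3.76. In all, 14 of the 89 borders met the rule on both control arrays taken singly, whereas 75 met it in the mean of the arrays without doing so on each.

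The spacing of the probes, which the rule limited but did not otherwise use, differed at the borders from that elsewhere. The distance between the starts of the last low and the first high probe had a median of 334 bp (quartiles 256 and 409 bp, range 102 to 499 bp), against 181 bp (138 and 241 bp) at the middle of all windows. It exceeded 250 bp at 67 of 89 borders (75.3%) and at 22.2% of all windows. Among the 30159 windows with a control step above 2, most of which were no borders, the share was 29.8%. The other distances within a border were near the usual spacing, with medians of 169 and 185 bp on the low side and 194 and 160 bp on the high side. The whole run of 6 probes spanned 1172 bp in the median, against 1040 bp for all windows. In most cases, then, the change in M lay across a stretch with fewer probes than usual, and only the outer limits of the change were measured. The median stretch without probe sequence between the last low and the first high probe was 274 bp. In the food restricted pool the step across gaps above 250 bp had medians of 2.95 and 3.23 on slides 1 and 2, and across the 22 shorter gaps of 2.53 and 2.70. The probes next to the border were also longer: the mean length was 57.8 bases at the last low and 57.6 bases at the first high probe, against 55.7 and 55.6 bases at the outermost probes and 55.0 bases over all probes in windows. The part of spacing and probe length in the step was not tested.

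In the control pool, the median M over borders at the 3 low probes, from the outermost inwards, was -1.67, -1.47 and -1.35 on slide 1 and -1.55, -1.61 and -1.36 on slide 2. At the 3 high probes, from the border outwards, it was 1.17, 1.88 and 2.20 on slide 1 and 1.40, 2.05 and 2.32 on slide 2. The food restricted pool showed the same shape, with -1.24, -1.32 and -1.12 on the low side and 1.00, 1.82 and 2.18 on the high side of slide 1, and with -1.23, -1.29 and -1.01 and then 1.29, 1.87 and 2.35 on slide 2. In both pools the first high probe was the least enriched of the 3 and the third the most, so the profile was steepest across the border and went on climbing beyond it. The control values are those that chose the probes. The food restricted arrays took no part in the choice, but they share slides and dye orientation with the control arrays. The shape there is thus not a fully separate reading.

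**Figure D1:**
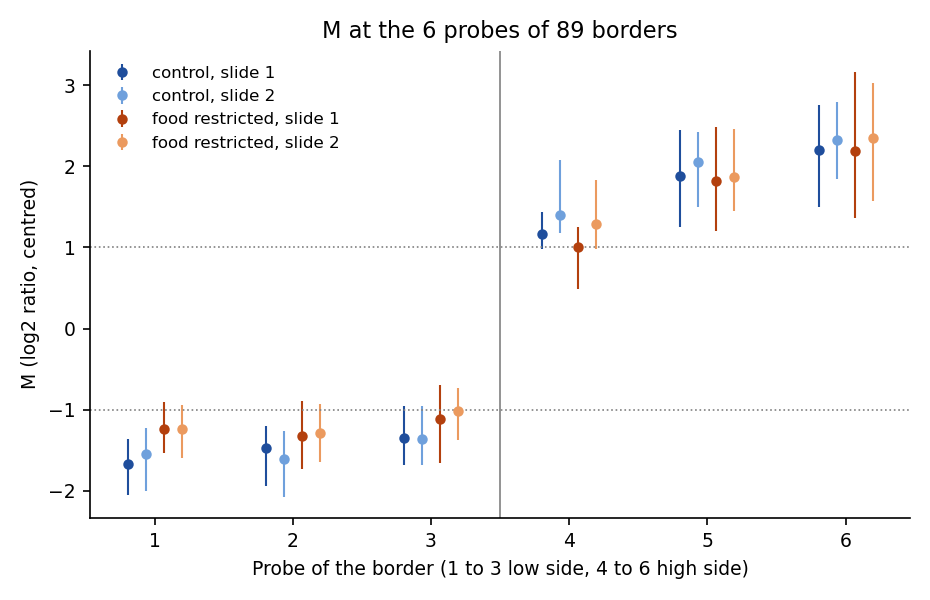
M (log2 ratio of immunoprecipitated to reference signal, centred) at the 6 probes of the 89 borders, with the low side on the left; points are medians over borders on each of the 4 arrays, bars run from the lower to the upper quartile over borders, and dotted lines mark the thresholds of -1 and 1. All 4 arrays change sign between probes 3 and 4, and the food restricted arrays lie above the control arrays at the low probes.

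Away from the border the profile returned towards 0 on both sides. On the low side, the probe 4 places out had a median M of -1.38 and -1.23 in the control pool and -1.05 and -1.03 in the food restricted pool, over the 83 borders with a connected probe there. Over the 68 borders with a probe 6 places out, the medians were -1.21 and -1.22 on the control arrays and -0.95 and -0.92 on the food restricted arrays. At these places the low flank was less depleted in the food restricted arrays. The flank probes lie close to probes chosen on low control values, so this is no reading apart from the choice. At 10 places out, over 34 borders, the medians were -0.064 and -0.60 in the control pool and -0.40 and -0.53 in the food restricted pool. The order was thus not kept there on slide 1. On the high side the probe 4 places out stood at 1.55 and 1.66 in the control pool and at 1.48 and 1.85 in the food restricted pool (78 borders). By 8 places out, over 49 borders, the medians lay between -0.23 and 0.10 on the 4 arrays. The stretch without a change of sign, counted in probes from the border, had a median of 5 probes on either side in both pools. It spanned 846 bp on the low and 764 bp on the high side in the control pool, and 754 and 712 bp in the food restricted pool. Both kinds of stretch were short, although in the control pool 36 low and 46 high stretches ended at a gap in the probes and could be longer. The longest stretches in the control pool spanned 2805 bp on the low and 4483 bp on the high side.

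**Figure D2:**
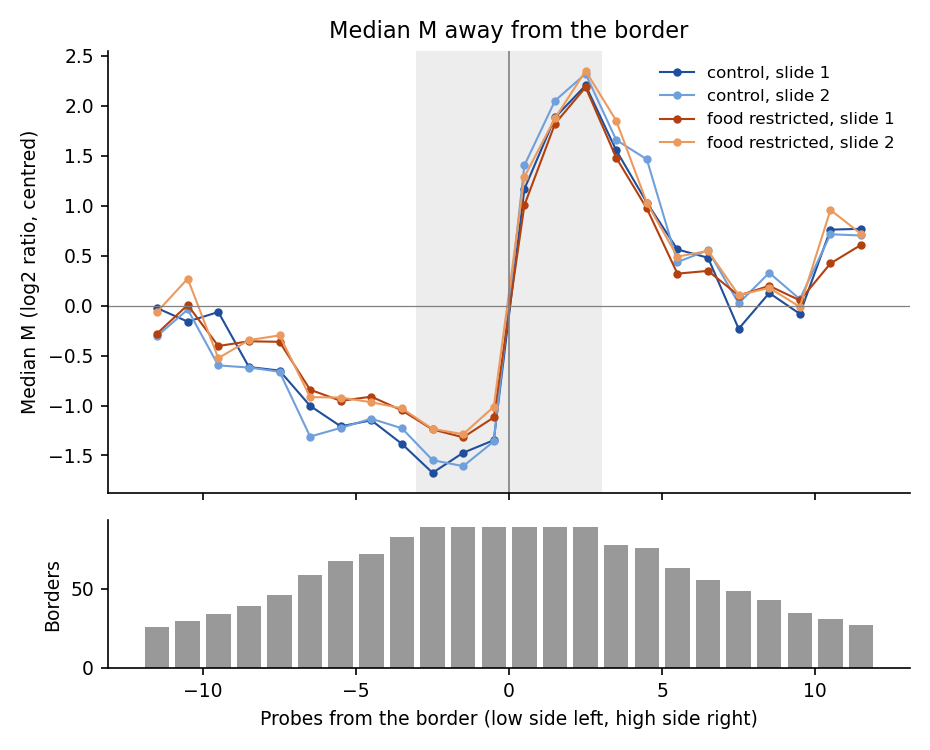
Median M (log2 ratio, centred) on each of the 4 arrays against the number of probes from the border, low side left and high side right, with the 6 probes of the rule shaded; bars below give the number of borders with a connected probe at each place. The medians shrink towards 0 on both sides and lie between -0.23 and 0.10 at 8 probes on the high side, where 49 borders remain; at 11 probes, with 31 borders, they are higher again, between 0.42 and 0.96.

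The step was present at the borders in the food restricted pool, although with median centring most of them did not meet the full rule there. The step is the mean M of the 3 high probes minus that of the 3 low probes. In the control pool its median was 3.37 on slide 1 (quartiles 2.97 and 3.70) and 3.50 on slide 2 (3.14 and 4.06). In the food restricted pool it was 2.82 on slide 1 (2.46 and 3.33) and 3.07 on slide 2 (2.50 and 3.62), and the smallest step on either food restricted array was 1.52. At 84 of the 89 borders all 6 probes of the food restricted mean lay on the same side of 0 as in the control pool, and at the other 5 at least 1 probe changed side. Steps in the 2 pools correlated at r = 0.82 over the 89 borders, which share probes and slides between the pools and are not independent replicates.

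The full rule was met in the food restricted mean at 12 of 89 borders (13.5%), against 0.0181% of all windows and 0.136% of windows with a control step above 2. This share depended on the scaling and the choice: it was 58.7% with loess, 30% with quantile normalization, 40% for borders chosen on all 4 arrays and 0% with centring on the densest value. The control pool itself met the rule at 0.0392% of windows, which is the choice of the members. Among the 77 other borders, 32 had 5 probes past the threshold in the food restricted mean, 31 had 4, 11 had 3 and 3 had 2. The probes next to the border failed most often, since the last low and the first high probe passed at 53 borders each, the others of the low side at 66 each, and those of the high side at 77 and 80. Conversely, the food restricted mean gave 41 borders under the same rule, of which the 12 shared ones make up 29.3%. The median step at these 41 borders was 3.26 and 3.47 in the food restricted pool, which chose them, and 3.23 and 3.42 in the control pool. The 12 shared borders had steps between 2.69 and 5.54 over the 4 arrays, and 8 of them were falling.

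Over the 89 borders the step was smaller in the food restricted pool, with a median difference of -0.42 on slide 1 and -0.38 on slide 2. It was smaller on both slides at 57 borders, larger on both at 8 and of opposite sign at 24. A difference of -0.5 or below on both slides was found at 22 borders (24.7%), against 5.53% of all windows oriented by their control step and 7.09% of windows with a control step above 2. A difference of 0.5 or above on both slides was found at 0 borders, against 3.44% and 7.11%. The median difference over windows with a control step above 2 was -0.035 and 0.032. Between the slides, the difference correlated at r = 0.26 over borders, so a large part of the spread among single borders was not shared by the slides. The control arrays in this difference also chose the borders, so arrays outside the choice are read further below. With loess within arrays, and the choice still on the control mean, the median difference turned to 0.045. There, 1 step was smaller and 7 were larger past 0.5 on both slides. For the 41 borders chosen on the food restricted pool the difference was 0.18, with 0 smaller and 2 larger steps. That choice favours large food restricted steps. The direction thus held for neither of these settings, and neither reads both pools on arrays outside the choice.

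**Figure D3:**
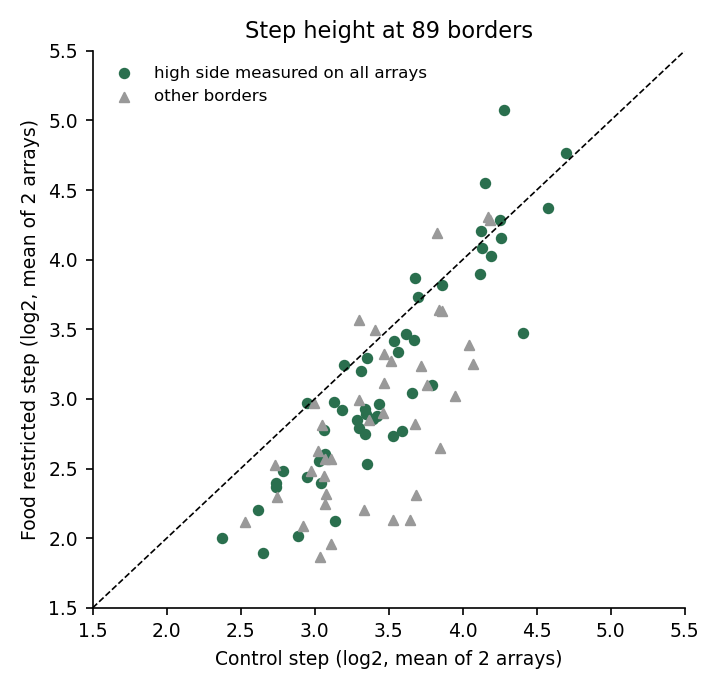
Step (log2, mean of 2 arrays per pool) of each of the 89 borders in the food restricted pool against the control pool, with the line of equal steps dashed; circles are the 50 borders whose high side was well above background in both channels, and whose low side was so in the reference channel, on all 4 arrays, and triangles are the other 39. Most points of both kinds lie below the line.

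To read both pools on arrays that took no part in the choice, borders were also chosen on a single array and read on the other slide. The 108 borders chosen on the control array of slide 1 had a median step of 3.50 on that array. On slide 2 the step was 3.11 in the same pool and 2.83 in the other, and the median difference over borders was -0.095. The 128 borders chosen on the control array of slide 2 had a step of 3.49 there, and on slide 1 of 3.03 in the same pool and 2.72 in the other, with a median difference of -0.25. The step was thus already smaller on a repeat of the same pool. When the 48 borders of the food restricted array of slide 1 were read on slide 2, the step was 3.24 in the same pool and 3.22 in the control pool. The 58 borders of the food restricted array of slide 2 had 2.96 in the same pool and 3.10 in the control pool on slide 1. Read in this way, the size and direction of the difference varied between the choices. Each choice on 1 slide was read on the other slide, so the array of the choice and the slide of the reading cannot be told apart. Food restricted minus control was between -0.25 and -0.095 for borders chosen on control arrays. With the sign turned, control minus food restricted was -0.070 and 0.19 for those chosen on the food restricted arrays of slides 1 and 2. Among these, the food restricted step was thus the larger for the choice on slide 1, read on slide 2. It was the smaller for the choice on slide 2, read on slide 1. In the readings on slide 1 it was the smaller for either choosing pool, while in those on slide 2 the direction differed between the choosing pools. The full rule repeated rarely even within a pool, on 14 of 108 and 14 of 128 borders between the control arrays, and on 6 of 48 and 6 of 58 between the food restricted arrays. In the other pool on the same reading slide it was met at 6 of 108, 8 of 128, 8 of 48 and 6 of 58. On the slide of the choice, the other pool met it at 9 of 108, 17 of 128, 9 of 48 and 17 of 58. Except for the choice on the control array of slide 1, this was more often than in the same pool on the other slide. The part of the shared slide and dye orientation was not tested.

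**Figure D4:**
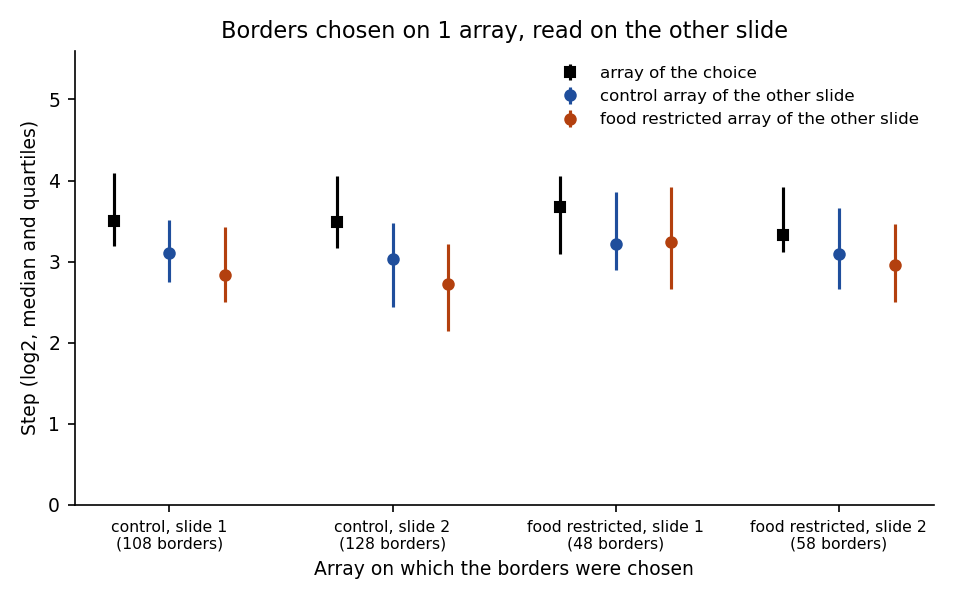
Median step (log2) with quartiles over borders chosen on 1 array, for each of the 4 arrays: squares give the array of the choice, and circles the control (blue) and food restricted (orange) arrays of the other slide. Every square lies above both of its circles, and the quartile ranges of the pools overlap for each choice.

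The sides of the border were then read separately. The median D of the low side was 0.34 on slide 1 and 0.35 on slide 2, and it was above 0 on both slides at 63 borders and below 0 on both at 4. The median D of the high side was -0.096 and 0.016, with 30 borders above 0 and 34 below 0 on both slides. Over all autosomal probes the medians of D were themselves above 0, at 0.035 for slide 1 and 0.10 for slide 2. The high side medians lay below these values and the low side medians above them. The counts of borders above and below 0 do not take this into account. D was at least 0.5 on both slides on 9 low sides (10.1%). The same share was 6.46% for 3 consecutive probes in all windows and 18.7% for the first 3 probes of the 10006 windows with all 6 probes below -1 in the control pool, where the median D was 0.39 over both slides. On the high side 3 borders had a D of -0.5 or below on both slides, against 0.505% of all windows, and 0 had 0.5 or above. In the 27188 windows with all 6 probes above 1 these shares were 0.0294% and 14.8%, and the median D was 0.19. The low sides of borders and the uniform low runs both lay higher in the food restricted pool. Both were chosen on low control values, which favours a D above 0, so their likeness is a description. No uniform low runs chosen on other arrays were read. On the high side the uniform high runs had a median D of 0.13 on slide 1 and 0.26 on slide 2. No uniform high runs chosen on other arrays were read. For borders chosen on control arrays and read outside the choice, the median of food restricted minus control was 0.11 on slide 2 and -0.10 on slide 1. For those chosen on food restricted arrays, control minus food restricted was -0.13 on slide 2 and 0.0076 on slide 1. The sign thus varied, while each reading lay below the uniform high runs of its slide. With loess the median D of the high side was 0.13. The uniform high runs were also further from 0 in the control pool, with a median M of 2.76 and 2.64 on the control arrays. The direction on the low side was the same on arrays outside the choice. On arrays outside the choice, the food restricted low side lay above the control low side by a median of 0.22 and 0.25 for borders chosen on control arrays, and the control low side stood at -0.17 and -0.21 relative to the food restricted one for those chosen on food restricted arrays. For borders chosen on the food restricted mean and read on all arrays, the median D of the low side was 0.025. That is below the value of all autosomal probes on either slide.

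After centring each channel on its array median, the immunoprecipitated signal of the low side stood at -1.79 and -1.70 in the control pool and at -1.57 and -1.54 in the food restricted pool. The median difference over borders was 0.20 and 0.23, against -0.23 and -0.20 over all autosomal probes. In the reference channel the low side differed by 0.14 on both slides, against 0.093 and 0.098 over all probes. On the high side the immunoprecipitated signal was 1.49 and 1.62 in the control pool and 1.03 and 1.31 in the food restricted pool, a median difference of -0.37 and -0.31, which is below that of all probes. The reference signal of the high side differed by -0.043 and 0.036. The control signal of these channels is part of the M that chose the borders, and most low probes were dim in the control pool, so these differences are a description and nothing is read from them.

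Few borders were measured well above background at all probes. On the low side the immunoprecipitated signal was well above background at 38.6% and 35.2% of the 267 probe places on the control arrays and at 58.8% on each food restricted array. Most low values of M are thus upper bounds on the control arrays and not on the food restricted arrays, which makes the low side D uneven between the pools. All 3 low probes were dim on both control arrays at 24 borders and on both food restricted arrays at 11. On the high side, 47 of 267 probe places (17.6%) were dim in both channels on a control array, at 30 borders, and there M is the ratio of a pair of weak signals. The borders were therefore divided by signal, a division chosen after the data were seen. At 50 borders the reference was well above background at all 6 probes and the immunoprecipitated signal at the 3 high probes on all 4 arrays. At these 50 the median step difference was -0.44 on slide 1 and -0.22 on slide 2, the low side D was 0.41 and 0.36, and the high side D was 0.0012 and 0.085. At the other 39 the step difference was -0.42 and -0.72, the low side D 0.31 and 0.35, and the high side D -0.25 and -0.20. Of the 22 borders with a smaller step, 9 belonged to the 50 and 13 to the 39. The control arrays differed in M of the high side by a median of 0.12 at the 50 and 0.39 at the 39 borders, and by up to 2.82 at the latter. The shift of the low side was thus similar in both sets, and the median D of the high side was below 0 on both slides only among the 39. Against the medians of all autosomal probes (0.035 and 0.10), the high side was lower in both sets. The 39 are not all borders with dim high probes, since some failed on a low side reference probe alone, and the division also used the signal of the food restricted arrays. Long gaps were frequent in both, at 84.0% and 64.1%. In only 3 borders were all 6 probes well above background in both channels on all arrays. They lay on chromosomes 2 (chr2:130250117-130251656), 8 (chr8:125298863-125299970) and 14 (chr14:52531533-52532432), and their step differences were 0.17, -0.015 and -0.24 on slide 1 and 0.0044, -0.21 and -0.33 on slide 2.

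The borders with the largest steps had large steps in both pools. Among rising borders, that on chromosome 14 (chr14:51780974-51782524) ranked first by its smallest step over the arrays, with 4.31 and 4.24 on the control arrays and 4.61 and 5.54 on the food restricted arrays. Its low side stood at -1.36, -1.45, -1.38 and -2.24 in the same order and its high side at 2.95, 2.79, 3.24 and 3.30. All 3 low probes were dim on both control arrays and 2 of them on both food restricted arrays, so the steps of both pools are lower bounds. The rising border on chromosome 10 (chr10:23679223-23680454) had steps of 4.09 and 4.43 in the control and 4.11 and 4.20 in the food restricted pool. At the rising border on chromosome 2 named above for its measured probes, they were 4.02 and 4.22 against 4.19 and 4.23. The pools overlapped at both of these. Among falling borders, the largest was on chromosome 2 (chr2:25669462-25670802), with a low side of -1.78 and -2.08 in the control and -1.61 and -1.64 in the food restricted pool. Its high side was 2.72 and 2.83 in the control and 3.02 and 3.27 in the food restricted pool, so both sides lay higher in the latter and the step was 4.49 and 4.91 against 4.63 and 4.91. The falling borders on chromosomes 4 (chr4:140768786-140770133) and 10 (chr10:59340734-59342138) had steps of 4.54 and 4.60 against 4.26 and 4.47, and of 4.09 and 4.27 against 4.08 and 4.48.

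**Figure D5:**
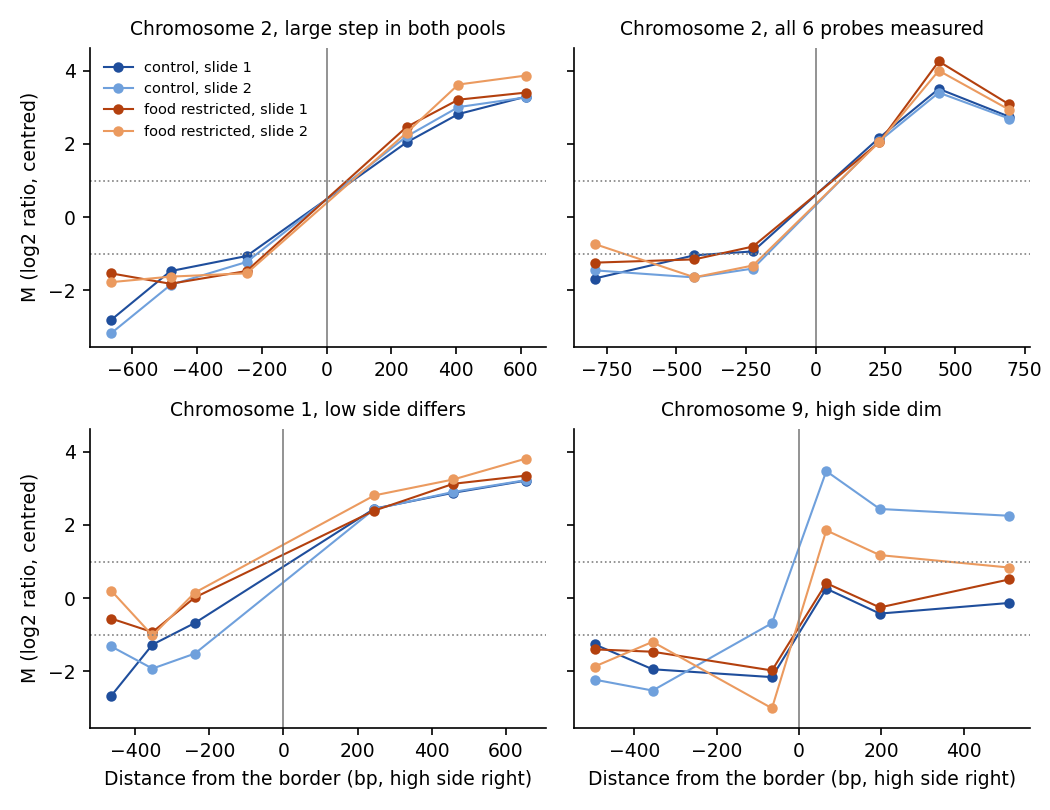
M (log2 ratio, centred) of the 6 probes of 4 borders against distance from the middle of the border in bp, high side right, for the 4 arrays; dotted lines mark -1 and 1. At the upper borders the arrays part most at the outermost low probe and at the middle high probe. At the chromosome 1 border the food restricted arrays lie higher on the low side. At the chromosome 9 border the control array of slide 2 stands apart on the high side, where all probes were dim.

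At the 6 borders with the most negative difference, ranked by the slide with the smaller change, the step of the food restricted pool was lower by 0.83 or more on each slide. The border on chromosome 7 (chr7:91829208-91830101) came first, with steps of 3.20 and 4.08 in the control pool and 1.92 and 2.34 in the food restricted pool. Its low side was -2.09 and -2.19 against -1.51 and -1.53, and its high side 1.12 and 1.89 against 0.41 and 0.81. No low probe was well above background on both arrays of either pool, and 2 of the 3 high probes were dim in both channels on all 4 arrays, so these values and the rank of this border rest on signal at background. Another on chromosome 7 (chr7:132706070-132706976) had a high side of 1.87 and 1.62 in the control and 0.95 and 0.94 in the food restricted pool. Most of this difference came from 1 probe, next to the border, with M of 1.76 and 1.71 against -0.57 and -0.43. That probe was not well above background in the immunoprecipitated channel on any array, nor in the reference channel on the control arrays. At the other high probes M was 1.70 and 1.32 against 1.46 and 1.23, and 2.14 and 1.85 against 1.94 and 2.01. The border on chromosome 1 (chr1:173277539-173278711) differed instead on the low side. That side stood at -1.54 and -1.58 in the control and at -0.49 and -0.22 in the food restricted pool, while the high side was 2.84 and 2.85 against 2.95 and 3.29. It was the only 1 of the 6 with its high side measured in both channels on all arrays, and of its low probes 2 were dim on both control arrays and 0 on both food restricted arrays. The border on chromosome 13 (chr13:23678781-23679965) had steps of 3.46 and 4.43 against 2.46 and 3.58, and that on chromosome 10 (chr10:127983029-127984055) of 3.53 and 3.13 against 2.10 and 2.30, with 3 and 2 low probes dim on both control arrays. At the third border on chromosome 7 (chr7:93023602-93024938) no high probe was well above background on any array, and its high side of 0.92 and 2.51 in the control and -0.17 and 1.47 in the food restricted pool varied more between slides than between pools.

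The 6 borders with the most positive difference were ranked in the same way. At the border on chromosome 14 named first above, the difference between the measured steps was 0.30 on slide 1 and 1.29 on slide 2, but both steps are lower bounds there and neither its size nor its rank is settled. On chromosome 1 (chr1:44173854-44175154) it was 0.52 and 0.20, and on chromosome 12 (chr12:53198157-53199305) 0.15 and 0.64. The differences on chromosomes 18 (chr18:44120194-44121581) and 13 (chr13:51226744-51227739) were 0.07 and 0.46, and 0.32 and 0.057. The chromosome 5 border nearest to the threshold had 0.016 and 0.15. Steps of the pools overlapped at the borders on chromosomes 1 and 18 and not at the other 4, and 0 of the 6 reached 0.5 on both slides.

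The 4 borders with the closest probes all had dim high probes. This was not general among short gaps, since 8 of the 22 borders with gaps of 250 bp or less were among the 50 measured on the high side. On chromosome 7 (chr7:12340530-12341254) the last low and the first high probe started 102 bp apart, and the steps were 2.95 and 3.79 in the control and 2.88 and 2.82 in the food restricted pool. The next, on chromosomes 18 (chr18:37882708-37884030), 13 (chr13:4431371-4432506) and 9 (chr9:20264922-20265986), had distances of 116, 125 and 132 bp. Between 0 and 2 of their 3 high probes were well above background in the reference channel on both control arrays. The border on chromosome 9 shared its 3 high probes with a rising border (chr9:20264224-20265425), which made a high stretch of 504 bp. This was the only pair of borders within 5000 bp of each other. No probe of this stretch was well above background in either channel on any array, and its mean M was -0.097 and 2.72 on the control arrays and 0.22 and 1.29 on the food restricted arrays. Both borders thus passed through the high values of the control array of slide 2. These borders, and the border on chromosome 7 at chr7:31514634-31515967 with steps of 3.57 and 3.76 against 3.20 and 3.64, were among the 4 nearest to the threshold.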

How the data were processed

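Agilent Feature Extraction 10.5.1.1 is named in the submitters' processing notes. The deposited processed intensity of each channel was background-subtracted and scaled by a linear factor per dye, per the file headers, with no normalization between arrays. The deposited value table holds the log2 ratio of red over green. Its columns for the food restricted array of slide 1 and the control array of slide 2 hold each other's scanner values (100% of probes equal within 0.002). The scanner files were used because their direction matches the titles' dyes. Which arrays belong to which pool rests on their labels. The control array took an identical position on each slide, so position and pool cannot be told apart.

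Each M followed the dye labels and was centred on the median of 415814 probes. After leaving out 65 probes flagged as outliers, 398367 autosomal probes were sorted by start. No loess or quantile step was applied. The search code was run on simulated borders planted well past the thresholds on an even background with little noise. That run checks the code and does not measure how the search performs on these arrays. Alternatives used limma 3.58.1 (normexp offset 50, loess) and other thresholds, spacings and choices. Borders named in the text were those with the largest smallest step over the arrays, the most negative and most positive differences with 1 sign on both slides, the shortest gaps, the smallest margins and the narrowest stretches between borders; the 3 measured at all probes were added after their values were seen. The rule, the members and the comparisons were chosen with earlier results of these data known. A planned comparison of CG content was not run, because it needs probe sequences.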

Additional observations from a re-analysis of the deposited data

How the results depend on the processing

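Of 22 alternatives, the median step difference (-0.41 in the main setting) stayed below 0 in 19. The median D of the low side (0.32) stayed above 0 in all 22, between 0.025 and 0.54. These counts do not measure robustness, since most alternatives still chose the borders on control arrays. Keeping outlier flags or reading the deposited value table left both medians at -0.41 and 0.32, and pairing the pools across slides cannot move them. The cause of each change was not tested, except that stricter or looser thresholds and spacings change the number of windows that can pass. Each D is a median in log2 units, and smaller and larger steps are counts of borders past 0.5 on both slides, 22 and 0 in the main setting.

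Without centring, the step difference was -0.23, 1 step was larger and the high side D was 0.092. Centring on the densest value left 12 borders, 0% of them meeting the rule in the food restricted pool, with a step difference of -0.85, 7 smaller steps, and D of 0.54 and -0.28 on the low and high side. With loess 58.7% met the rule in the food restricted pool, the step difference was 0.045, 1 step was smaller and 7 larger, and D was 0.073 and 0.13. With quantile normalization the share was 30%, the step difference -0.14, with 4 smaller and 1 larger, and the low side D 0.074. Normexp, whose offset shrinks dim ratios, left 3 borders, 0% of them shared, with a step difference of 0.24, 0 smaller steps, and D of 0.20 and 0.52.

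After removal of saturated probes and those dim in the reference, the step difference was -0.37, with 11 smaller steps and D of 0.37 and 0.031. Without dim immunoprecipitated probes 15 borders were found, with -0.24, 1 smaller step and a low side D of 0.27. Thresholds of 0.5 gave 2039 borders, 41.2% shared, a step difference of -0.27, 246 smaller and 6 larger steps and a low side D of 0.21. Thresholds of 1.5 gave 1 border, 0% shared, with -1.38, 1 smaller step and a high side D of -1.06. A spacing of 300 bp gave 21 borders, 0% shared, -0.47, 6 smaller steps and 0.37 on the low side. A spacing of 1000 bp gave 254, 26.8% shared, -0.37, 50 smaller, 2 larger and 0.39. With 4 probes a side there were 30 borders, with -0.35, 7 smaller and 0.40. When both control arrays had to pass singly, 14 borders were found, with 3 smaller steps and a low side D of 0.29.

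Chosen on the food restricted pool, 41 borders were found, 29.3% shared, with a step difference of 0.18, 0 smaller and 2 larger steps, and D of 0.025 and 0.16. Chosen on all 4 arrays, 55 were found, 40% shared, with -0.15, 4 smaller and 0.19 on the low side. With a control array left out of the choice (108 or 128 borders), the share was 5.56% to 6.25%, the step difference -0.25 to -0.095, smaller steps 23 to 42, larger steps 3 to 11, and D 0.22 to 0.25 and -0.10 to 0.11. With a food restricted array left out, an alternative chosen after seeing the data, these were 7.87% to 14.6%, -0.42 to -0.38, 36 to 38, 1 to 3, 0.34 to 0.35 and -0.096 to 0.016. Each such count rests on 1 slide. The replicate block is the slide: without it, with the pools paired across slides, 13 steps were smaller. At a size of 0.3, 1 step was larger, and at a size of 1, 2 were smaller.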
